A study of Sus scrofa with 180 samples.

Results

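The genes described here are CPT1B, ACADVL, ACADS, HADHA and ACSF3, 5 enzyme genes of fatty acid oxidation and the malonyl-CoA metabolism beside it. Their probes were found by gene symbol in the study's supplementary gene lists, which were used only to pair probes with genes, and each gene had 1 probe named there, so they cover 5 of the 15198 probes of the array. Other probes for these genes could be among the probes that are unnamed here. The part of those lists used here names 3967 probes of 3481 genes, and it holds only probes that the study had called different between the muscles in these arrays. That a member differed between the muscles, and in which direction, was therefore fixed by its place in the lists and is given below as a description. The correlations over pigs within a muscle and the comparison of the muscles within a pig did not enter that choice.

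RNA came from 2 muscles of 90 pigs, the Longissimus of the back (LM) and the Semimembranosus of the ham (SM), with 1 single-colour Agilent array of the custom pig muscle chip for each muscle of each pig and 180 arrays in all. The pigs were untreated animals at slaughter weight from an intercross of 2 terminal sire lines, fell into 2 half-sib families, and all carried the normal alleles at the HAL and RN loci, which are known for their effects on meat quality. Both muscles were taken from the same carcass with a trocar from the superficial region 20 minutes after death, so deep regions of either muscle are not represented. A separate sample of each muscle was taken from each pig, and the pig is the replicate. Across arrays the median processed signal ranged from 170.8 to 304.3 in LM and from 104.9 to 251.9 in SM, and 69.2% to 99.9% of the spots in LM and 63.4% to 83.3% in SM were well above background. In a check of the labelled tissue, the brighter probe of ACTA1, skeletal muscle actin, reached 9.46 in LM and 10.16 in SM and MB, myoglobin, 8.11 and 8.44 on the log2 scale above the median of the array. The other ACTA1 probe lay at 8.31 and 9.14. The probe named CKM, muscle creatine kinase, lay near the array median at 0.08 and -0.22. Each slide and each scan day held arrays of 1 muscle, 21 slides for LM and 14 for SM, so a difference of slides or days between the muscles and a difference of the muscles cannot be told apart.

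Long-chain fatty acids enter mitochondria through the carnitine shuttle, and each turn of beta-oxidation then shortens the chain and passes electrons to the respiratory chain. CPT1B is the muscle form of the outer-membrane enzyme that joins fatty acids to carnitine, the gate of the pathway, and is inhibited by malonyl-CoA. ACADVL and ACADS are the very-long-chain and short-chain acyl-CoA dehydrogenases, which take the first oxidation step at the opposite ends of chain length. HADHA is the alpha subunit of the mitochondrial trifunctional protein, which carries the later steps for long chains. ACSF3 makes malonyl-CoA inside mitochondria and is a synthetase rather than an enzyme of the oxidation cycle. Oxidative muscle fibres are known to hold more mitochondria and to burn more fat than glycolytic fibres.

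Since each gene's values rest on a single 60-base probe, the first 30 bases of each probe are shown, 5′ to 3′, as the scanner's output gives them. The capitals mark the first 15 bases, over which the number of C was counted for an index of C-rich probes, a technical measure of each array used below.
CPT1B: TCCTGCATTCCATCCcttccatatccgcag
ACADVL: TAAAACACAAGAAGGatattgtcaatgaac
ACADS: CAGTCTTGGGGTTGGatcattgtggaagct
HADHA: TCTTTGTCCTTCTGGtttaaccccctttcc
ACSF3: ATTGTCTCGGGAAACctgcagaaggacggc
The CPT1B probe held 7 C among its first 15 bases, against 2 in ACADVL, 2 in ACADS, 4 in HADHA and 3 in ACSF3, and none of the 5 fell in the C-rich class of 8 or more. G and C made up 60% of the CPT1B probe, 55% of the ACSF3 probe, 53.3% of the ACADS probe and 45% of the probes of ACADVL and HADHA. The place of these probes in the pig genome or in a transcript was not analysed here.

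CPT1B stood alone among the 5 in being higher in LM, while the 2 dehydrogenases, the trifunctional protein subunit and the malonyl-CoA synthetase were higher in SM. Values are log2 of the processed signal minus the median of the array, so they compare arrays for 1 probe and not probes with each other. CPT1B ranged from -0.50 over a median of 0.93 to 1.92 in the 90 LM arrays and from -3.10 over a median of -1.24 to -0.03 in the 90 SM arrays. Only 6 LM arrays lay within the SM range and 9 SM arrays within the LM range, and LM was the higher muscle in 90 of 90 pigs. The means were 0.82 ± 0.52 (SD) and -1.29 ± 0.63, a ratio of 4.30, and 99.1% of the probes kept had a smaller difference. Its processed signal had a median of 993.5 in LM and 172.9 in SM, and no CPT1B spot in either muscle failed to stand well above background.

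The members of the oxidation cycle were 1.63-fold to 1.98-fold higher in SM. HADHA ranged from 2.64 over a median of 3.25 to 3.99 in LM and from 3.26 over 4.25 to 5.33 in SM, and its SM value was the higher in 86 of 90 pigs. HADHA had means of 3.27 ± 0.30 and 4.26 ± 0.34, a difference of LM minus SM of -0.99 on the log2 scale (SE 0.047, adjusted p = 4.17e-49 in limma's fit across all probes). The muscles thus overlapped in HADHA, with 44 LM arrays inside the range of SM and 15 SM arrays inside the range of LM.

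ACADS differed by the least, with means of 4.46 ± 0.17 in 84 LM arrays and 5.16 ± 0.21 in 90 SM arrays, and was the higher in SM in 84 of 84 pigs. Its LM values ran from 4.09 over 4.45 to 4.89 and its SM values from 4.45 over 5.18 to 5.67 (difference -0.71, SE 0.029, adjusted p = 4.70e-57 in limma). The 6 LM arrays without a value had non-uniform ACADS spots. ACADS was also the least variable member, since only 7.53% of the probes kept had a smaller SD in LM and 17.7% in SM, while for CPT1B these shares were 90.2% and 96.2%.

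ACADVL overlapped most between the muscles. It ran from 2.34 over 2.91 to 3.86 in LM and from 2.67 over 3.84 to 5.07 in SM, with 75 LM arrays inside the range of SM, and the SM value of a pig exceeded its LM value by a median of 0.91. ACSF3 was dim in both muscles, with medians of the processed signal of 264.2 in LM and 387.5 in SM, yet no ACSF3 spot failed the criteria. ACSF3 had values from -1.47 over -0.99 to -0.40 in LM and from -0.82 over -0.13 to 0.555 in SM, and was higher in SM in 89 of 90 pigs (difference -0.88, SE 0.039, adjusted p = 5.67e-54 in limma). Across all 10987 probes kept, 83.5% were called between the muscles, 35.7% as higher in LM and 47.7% as higher in SM, so a call by itself says little about a probe of this array.

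**Figure D1:**
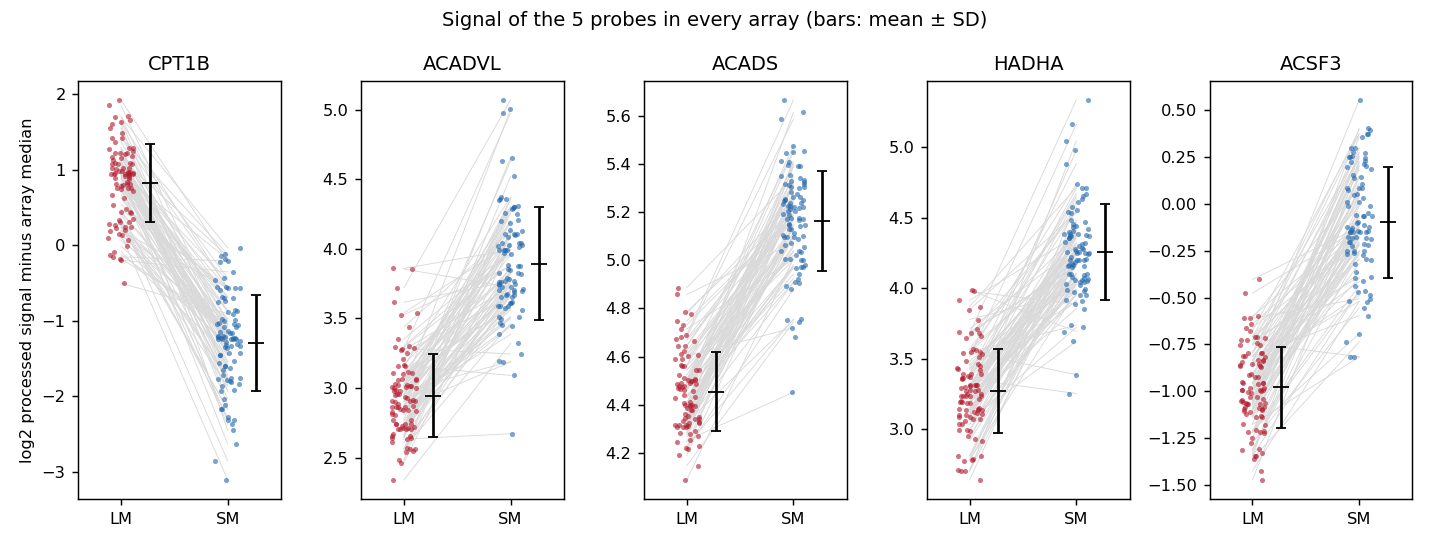
The log2 processed signal minus the array median is plotted for the 5 probes in each LM array (red) and SM array (blue). Grey lines join the muscles of a pig, and black bars give the mean ± SD. CPT1B falls from LM to SM in 90 of 90 pigs, and the other 4 genes lie higher in SM with overlapping ranges.

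Between the muscles, markers of fat cells, of mitochondria and of other cells differed too. A marker has a named probe here only where the study called that probe different, so nothing is read from how many of a marker list differed. The 3 adipocyte markers with a named probe, of 5 listed (ADIPOQ, PLIN1 and CIDEC), were higher in SM, and their summed signal ranged from 0.327 to 12.9 array medians in LM (median 1.36) and from 0.725 to 14.7 in SM (median 3.09). The 5 named probes of 3 markers of mitochondrial content (SDHA, UQCRC1 and ATP5A1, of 4 genes listed) were higher in SM, with sums from 242.4 to 897 array medians in LM (median 334.9) and from 285.7 to 733.2 in SM (median 513.5). Both sets of sums took every spot, also those set to missing elsewhere. In LM only 82 arrays kept a value for SDHA and 83 for UQCRC1. Whether the highest LM sums rest on failed spots was not tested. The slow fibre markers MYL2 and TNNI1 were also higher in SM, by 0.29 and 0.32 on the log2 scale, while of the 3 fast fibre markers with a named probe MYL1 was higher in LM, by 0.87, and MYH1 and PVALB were higher in SM, by 0.57 and 1.22. The 2 named endothelial probes and the 3 named fibroblast probes were higher in SM, and CD68, the 1 macrophage marker with a named probe, was higher in LM. In whole-muscle RNA, fewer cells of a type and less RNA per cell cannot be told apart, and the part of these markers in the differences of the members was not tested.

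The other genes of the pathway were split between the muscles. Of 91 genes in 8 lists of uptake, shuttle, mitochondrial and peroxisomal oxidation, malonyl-CoA, thioesterases, lipolysis and regulators, 39 had a named probe kept, 42 probes in all. Of these probes 18 were called as higher in LM, 23 as higher in SM and 1 was not called, with a median of -0.31 (LM minus SM, log2) beside -0.07 over all probes kept. The named probes were listed because they differed, so nothing is read from these counts.

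In the mitochondrial list, the 4 acyl-CoA dehydrogenases with a named probe were split between the muscles. The medium-chain enzyme ACADM was higher in LM (4.99 ± 0.24 against 4.60 ± 0.48, difference 0.39, SE 0.056, adjusted p = 9.6e-11 in limma), as was the long-chain enzyme ACADL (difference 0.24, SE 0.046, adjusted p = 8.7e-07 in limma), while the very-long-chain and short-chain enzymes ACADVL and ACADS were higher in SM. DECR1, the reductase needed for unsaturated chains, was higher in LM by 0.95, and ACAT1, a thiolase of ketone body and isoleucine breakdown, by 0.59. AUH and PCCA, enzymes of leucine and propionyl-CoA breakdown, were also higher in LM, by 0.37 and 0.44. Both probes of ETFB, the electron acceptor of the dehydrogenases, were higher in SM, by 0.55 and 0.29. The second was dim, with means of -3.38 and -3.09, and had a value in only 61 LM and 79 SM arrays.

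The 4 carnitine shuttle genes with a named probe were split as well. CPT1A, the liver form of the CPT1 enzyme, was higher in SM (1.58 ± 0.44 in LM and 1.96 ± 0.42 in SM, difference -0.38, SE 0.064, adjusted p = 2.05e-08 in limma), opposite to CPT1B. CRAT, carnitine acetyltransferase, was higher in SM by 0.56, and CROT, the peroxisomal carnitine octanoyltransferase, was higher in LM by 0.16. The 3 malonyl-CoA genes with a named probe were higher in SM: ACSF3, MLYCD, which breaks malonyl-CoA down, by 0.73, and MCAT, which passes malonyl groups to mitochondrial fatty acid synthesis, by 0.39.

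Among regulators, ESRRA, a nuclear receptor that drives oxidative genes, was higher in SM by 0.94, PPARA, the receptor that senses fatty acids, by 0.46 and PPARD by 0.32. PPARGC1B, a coactivator of these receptors, was higher in LM by 0.58. The catalytic AMP-activated kinase genes PRKAA1 and PRKAA2 were higher in LM by 0.33 and 0.40, but the second PRKAA2 probe was not called (difference 0.07, adjusted p = 0.148 in limma). LPL, the lipase that frees fatty acids from lipoproteins, was higher in LM by 1.03, as was the fatty acid carrier CD36 by 0.24 and 0.17 in its 2 probes, while ACSL1, which activates long chains, was higher in SM by 0.31. PNPLA2 and MGLL, the lipases that start and finish the release of stored fat, were higher in SM by 0.63 and 0.76. Among peroxisomal enzymes, HSD17B4 and ACOX2 were higher in SM, while DECR2 and SCP2 were higher in LM.

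**Figure D2:**
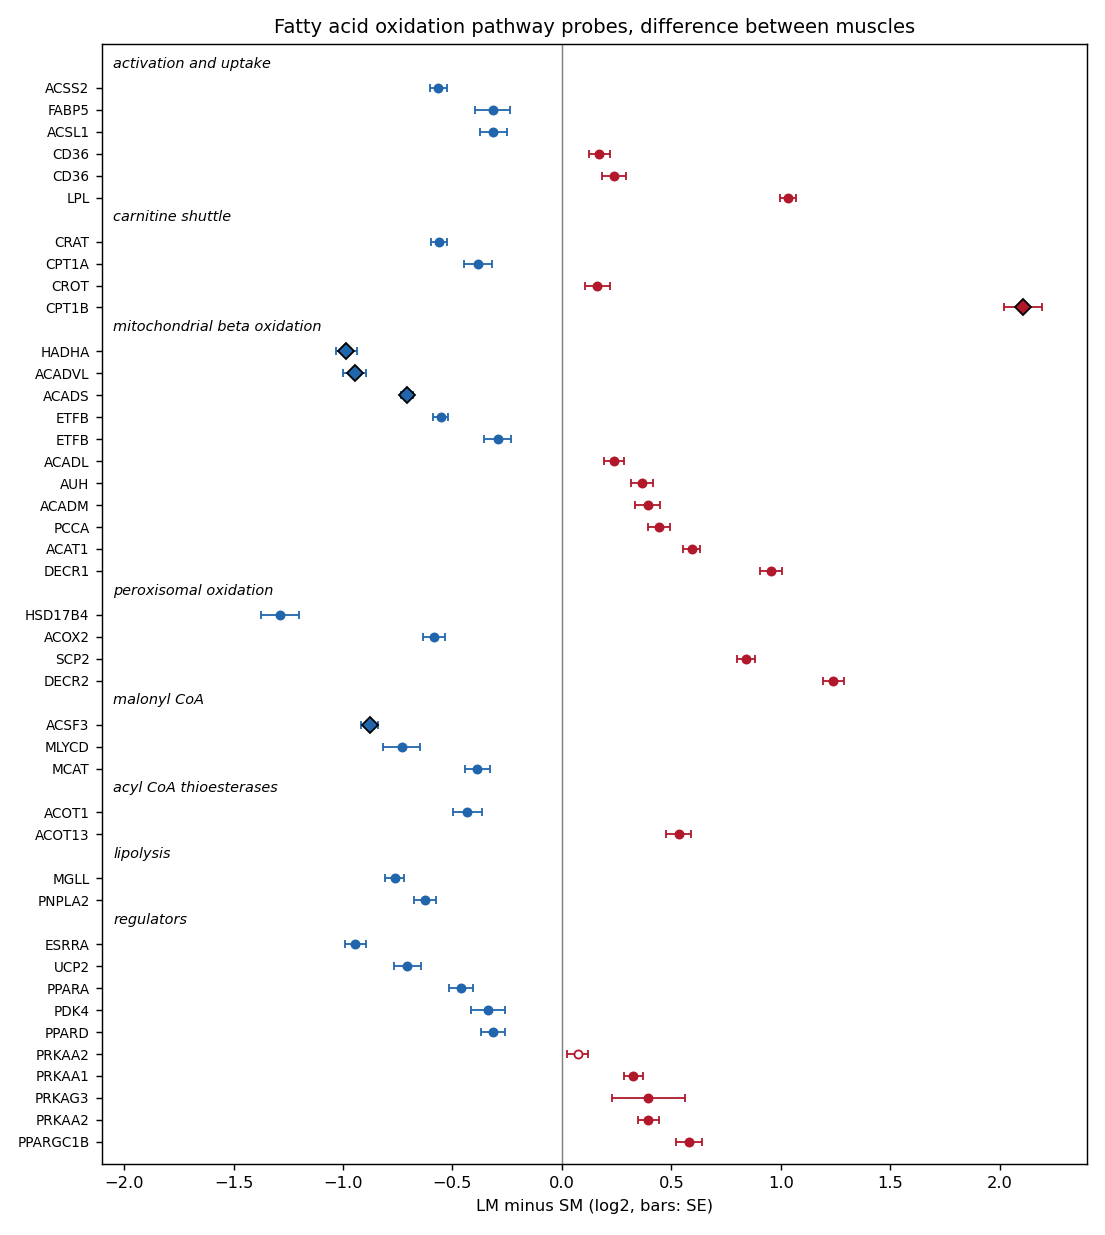
The difference of LM minus SM (log2, horizontal axis, bars of 1 SE) is shown for the 42 pathway probes, grouped by list, with red for higher in LM and blue for higher in SM. Diamonds mark the 5 members, and the open circle is the PRKAA2 probe that was not called. Every list with more than 3 probes holds probes on both sides of 0.

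The 4 genes that were higher in SM also went up and down together from pig to pig, and in SM no tie of CPT1B to them passed the test. Pearson's r was taken over pigs within each muscle for the 10 pairs of members, with a 2-sided permutation test (100000 permutations, smallest possible p of 1e-05) and Benjamini-Hochberg adjustment over the 20 correlations of both muscles. Among the 6 pairs without CPT1B, 6 passed in LM, with r from 0.30 to 0.58, and 6 in SM, with r from 0.44 to 0.87. Of the 4 pairs with CPT1B, 2 passed in LM and 0 in SM, where r lay between -0.11 and 0.06 and 0 of the 4 had an unadjusted p under 0.05. The median r over the 10 pairs was 0.33 in LM and 0.48 in SM, beside medians of 0.007 and 0.003 over all pairs of probes kept. An r of 0.5 or more was reached by 2 of the 10 pairs in LM and 5 in SM, against 1.53% and 1.65% of all pairs of probes, and 8.86% of all pairs in LM and 2.76% in SM reached the lowest r of a member pair that passed.

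The closest pair was ACADVL and HADHA, the very-long-chain dehydrogenase and the trifunctional protein subunit that acts on its products. In SM their r was 0.87 over 90 pigs (rho 0.79, adjusted p = 2.22e-05), and 0.83 without the 2 arrays farthest from the ACADVL median. Among 10635 probes, HADHA was the closest to ACADVL in SM and ACADVL the closest to HADHA. Of the 10 SM arrays highest in ACADVL 7 were among the 10 highest in HADHA, on 4 slides, and of the 10 lowest 7 were shared. In LM their r was 0.57 (rho 0.59, adjusted p = 2.22e-05) and 0.54 without the 2 arrays farthest out, and HADHA ranked 55 among the probes closest to ACADVL.

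ACADS and ACSF3 formed the next closest pair in SM. Their r was 0.74 in SM over 90 pigs (rho 0.67, adjusted p = 2.22e-05) and 0.45 in LM over 84 pigs (rho 0.40, adjusted p = 2.22e-05), with 0.71 and 0.41 without the 2 arrays farthest from the ACADS median. ACADS was the third closest of 10635 probes to ACSF3 in SM. With normexp background correction, a method that models the background instead of the scanner's processed signal, r fell to 0.35 in SM and to -0.095 in LM, where the pair no longer passed (adjusted p = 0.455). ACSF3 had the lowest processed signals of the members in LM, and under that correction its r in LM with ACADVL and HADHA was -0.03 and 0.05.

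The dehydrogenases ACADVL and ACADS, at the opposite ends of chain length, went together in both muscles (r = 0.58 in LM over 84 pigs and 0.64 in SM over 90 pigs, both with adjusted p = 2.22e-05 by permutation). ACADS and HADHA had r of 0.43 in LM and 0.62 in SM. ACSF3, beside its tie to ACADS, had r of 0.30 in LM with ACADVL and HADHA each, and 0.52 and 0.44 in SM. With slide means removed, all 6 pairs without CPT1B passed in both muscles. Within the 46 LM arrays read by version 9.5.3.1 of the scanner software, 4 of the 10 pairs passed, and within the 44 read by version 9.5.1.1, 7 did. Each subset was adjusted over its own 10 pairs and holds fewer pigs than the full set. ACADVL with ACSF3 had r of 0.15 and 0.39 in these subsets.

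CPT1B was tied to ACADVL and HADHA in LM, by r of 0.33 each over 90 pigs (adjusted p = 0.00313 and 0.00280 by permutation). The tie to ACADVL did not hold with slide means removed (r = 0.22, adjusted p = 0.102), while that to HADHA did (r = 0.30, adjusted p = 0.0154). Within software versions, CPT1B with ACADVL passed in the 46 arrays of 9.5.3.1 (r = 0.45, adjusted p = 0.0079 by permutation) and not in the 44 of 9.5.1.1 (0.26, adjusted p = 0.105), and CPT1B with HADHA passed in 9.5.1.1 (0.38, adjusted p = 0.0168) and not in 9.5.3.1 (0.27, adjusted p = 0.116). CPT1B and ACADS had r of 0.18 in LM and -0.11 in SM, and CPT1B and ACSF3 had -0.02 and -0.11. In SM, CPT1B also went with the index of C-rich probes of the array (r = -0.41, rho -0.37, adjusted p = 0.0033 over 30 technical correlations), and with that index regressed out its 4 pairs in SM stayed at adjusted p from 0.598 to 0.869.

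**Figure D3:**
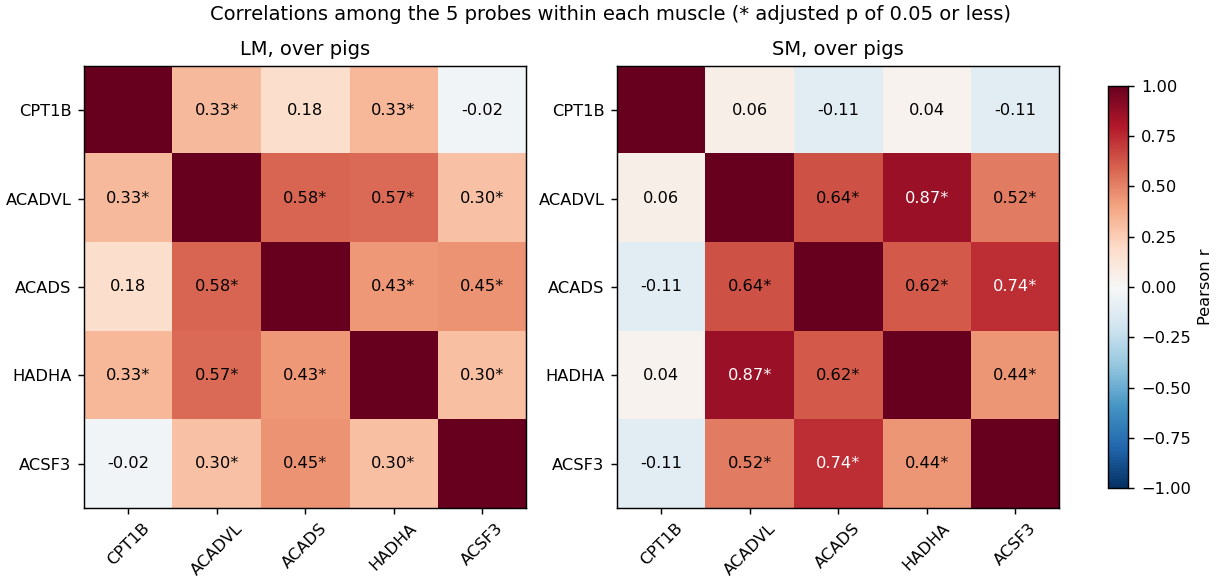
Pearson's r over pigs for each pair of the 5 probes is given in LM (left) and SM (right), coloured from -1 (blue) to 1 (red). Asterisks mark an adjusted p of 0.05 or less. The block of ACADVL, ACADS, HADHA and ACSF3 is positive throughout, and the CPT1B row is near 0 in SM.

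Whether a pair was tied more closely in one muscle was tested by swapping the muscle labels within pigs (100000 draws, adjusted over 10 pairs). The r of ACADVL and HADHA was lower in LM than in SM by 0.30 (adjusted p = 0.0099 by this permutation test), and that of ACADS and ACSF3 also by 0.30 over 84 pigs (adjusted p = 0.0203). With slide means removed these tests gave adjusted p of 0.0053 and 0.0208. The difference for ACADVL and HADHA passed under all 12 alternatives tried, none of which matched the software version. All SM arrays were read by version 9.5.3.1. In LM, r of this pair was 0.69 in the 46 arrays of that version and 0.53 in the 44 of 9.5.1.1. The difference for ACADVL and HADHA was not tested within a version. That for ACADS and ACSF3 did not pass when arrays were centred on the 75th percentile (adjusted p = 0.081), quantile normalized (0.272) or corrected by normexp (0.0888). For CPT1B and ACADS, r was higher in LM by 0.34, with an adjusted p of 0.0533. This difference passed under 4 of the 12 alternatives, with normexp (0.58, adjusted p = 0.0055 by permutation), in the authors' deposited values (0.43, adjusted p = 0.007), with centring over passing spots only (0.43, adjusted p = 0.0214) and without the pigs of replicates 36 and 79, which are described next.

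Pigs at the ends of the range were shared among the genes in SM. The SM array of replicate 36 was the lowest of all 90 in ACADVL (2.67), ACADS (4.45), HADHA (3.26) and ACSF3 (-0.82). The SM array of replicate 79 was the highest in ACADVL (5.07), ACADS (5.67) and ACSF3 (0.555) and the second highest in HADHA (5.16). Neither was among the 3 highest or lowest in CPT1B. In LM, the array of replicate 79 was the third highest in ACADVL (3.72), and otherwise neither pig was among the 3 highest or lowest of a member. With both pigs left out, a choice made after seeing the data, r was 0.83 for ACADVL and HADHA and 0.69 for ACADS and ACSF3 in SM, all 6 pairs without CPT1B still passed in each muscle, and the differences between the muscles of these 2 pairs had adjusted p of 0.0159 and 0.0424 by permutation. The difference of CPT1B and ACADS then passed as well (0.425, adjusted p = 0.012).

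**Figure D4:**
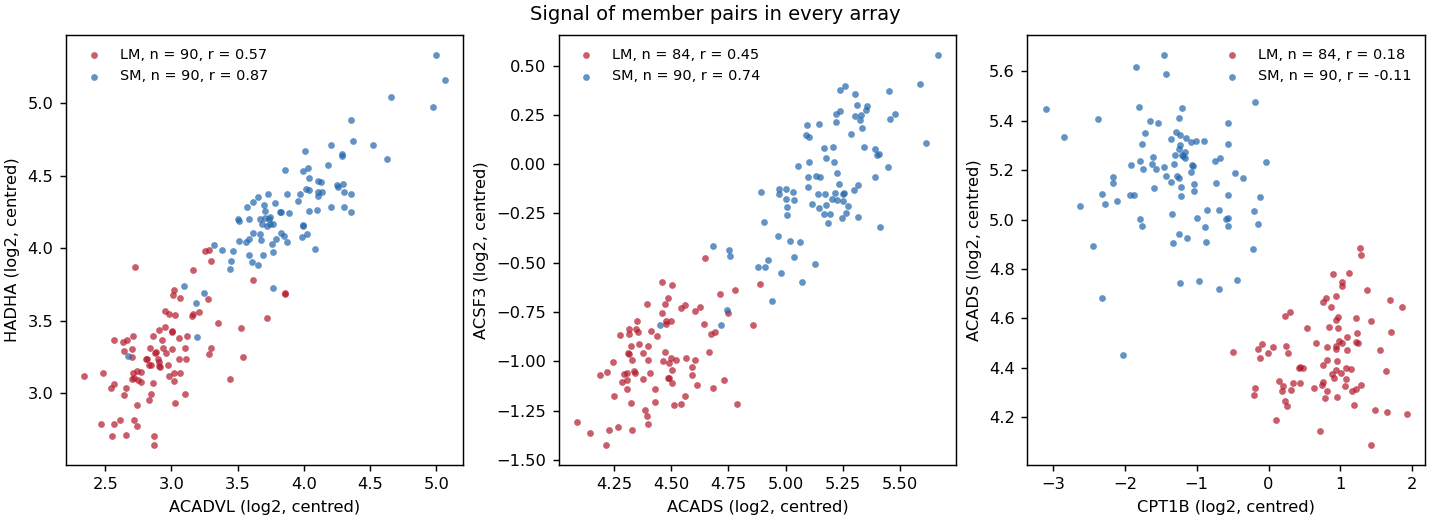
Each point is 1 array, LM in red and SM in blue, with the log2 processed signal minus the array median of 1 member on each axis. ACADVL and HADHA (left) and ACADS and ACSF3 (middle) line up more tightly in SM, with r of 0.87 and 0.74, than in LM, with 0.57 and 0.45. CPT1B and ACADS (right) form a cloud in each muscle.

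The named genes whose signal was most like that of each member were found as the 3 gene-named probes with the highest r over pigs in each muscle, out of the 3967 named, and probes without a name could rank higher. In SM, ACADVL was closest to DLST (0.78), a subunit of the oxoglutarate dehydrogenase of the citric acid cycle, to the brighter ETFB probe (0.78) and to NDUFA9 of respiratory complex I (0.78). ACADS in SM was closest to SDHA (0.80), the succinate dehydrogenase subunit shared by the citric acid cycle and complex II, to IDH3G (0.76) and to NDUFV1 (0.76). HADHA was closest to the same ETFB probe (0.72), DHRS4 (0.72) and DLST (0.68), and ACSF3 to SDHA (0.75), IDH3G (0.75) and TUFM (0.72), the mitochondrial elongation factor. The second ETFB probe had an r of -0.03 with ACADVL in SM. These r over 90 pigs were picked as the highest and carry no test.

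In LM, ACADS was again closest to SDHA (0.69), then to COX6A2 (0.64) and CYC1 (0.63) of the respiratory chain. HADHA was closest to both probes of CD36 (0.62 and 0.61) and to POLR3GL (0.60), ACADVL to GOT1 (0.68), KIAA0664 (0.68) and METTL11A (0.67), and ACSF3 to HS3ST6 (0.58), TTLL3 (0.56) and ATP10A (0.51). CPT1B in LM was closest to MLYCD (0.67), the enzyme that removes its inhibitor malonyl-CoA, then to SFRS12 (0.67) and TUT1 (0.67). In SM, CPT1B was closest to FNBP4 (0.72), NXF1 (0.71) and GNL2 (0.70).

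Correlations of each member with the 60 other probes of the pathway and marker lists, were computed after earlier values were seen and adjusted over 600 tests. With the 5 probes of mitochondrial content, ACADVL passed with a positive r in 5 in LM and 5 in SM (r from 0.44 to 0.66 and from 0.67 to 0.77), where 11.3% and 14.8% of all probes had an r as high as its lowest passing r. ACADS passed in 5 and 5 (shares of all probes 7.26% and 11.9%), HADHA in 2 and 5 (9.42% and 12.3%), and ACSF3 in 2 and 5 (9.74% and 15.9%). CPT1B passed in 0 of 5 in either muscle, with r between -0.07 and 0.10, and 0 of these 10 correlations had an unadjusted p under 0.05.

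CPT1B passed with other genes of fat handling, with r in both directions. Its r with MLYCD was 0.67 in LM and 0.31 in SM (adjusted p = 7.6e-05 and 0.00922 by permutation), with PPARA 0.50 and 0.41 (adjusted p = 7.6e-05 and 0.00034), and with ACADM 0.39 and 0.46 (adjusted p = 0.00044 and 7.6e-05). With DECR1 it was 0.53 in SM (adjusted p = 7.6e-05) and 0.10 in LM. With the coactivator PPARGC1B it was -0.53 in LM (adjusted p = 7.6e-05) and -0.18 in SM. With the second ETFB probe it was -0.47 in LM and -0.48 in SM (adjusted p = 0.00039 and 0.00013 by permutation). Negative r also passed with PRKAG3 in LM (-0.32), and with HSD17B4 (-0.40) and ACSS2 (-0.33) in SM. In all, 8 of 37 pathway probes passed with a positive r in LM and 12 in SM, where 13% and 14.5% of all probes reached the lowest r with which any listed probe passed. With a negative r, 4 of the 37 passed in LM and 3 in SM. As far below 0 as a listed probe that passed went 10.6% of all probes in LM and 18.9% in SM. MLYCD and PPARA were tied to ACADVL as well, by r of 0.46 and 0.51 in LM and 0.49 and 0.42 in SM, and to HADHA, by 0.52 and 0.25 in LM and 0.44 and 0.36 in SM, and ACADM passed in LM with ACADVL (0.51), ACADS (0.27) and HADHA (0.35), as did DECR1 with ACADVL (0.30). In SM, ACADM and DECR1 did not pass with these 3 members (r from -0.07 to 0.17). Removing slide means left r with MLYCD at 0.66 and 0.33, with PPARA at 0.44 and 0.44 and with ACADM at 0.33 and 0.46.

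ACADVL was tied to the lipase PNPLA2 (r = 0.62 in LM and 0.74 in SM), to ESRRA (0.57 and 0.65) and to ACSL1 (0.60 and 0.67), all with an adjusted p of 7.6e-05 by permutation. HADHA followed ACADL, the long-chain dehydrogenase, in both muscles (0.54 and 0.53, adjusted p = 7.6e-05), whereas its r with the 2 CD36 probes was 0.62 and 0.61 in LM and 0.26 and 0.21 in SM, where the second probe did not pass (adjusted p = 0.111 by permutation).

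The r with fibre markers varied from marker to marker. The fast light chain MYL1 had negative r that passed with ACADVL (-0.28 in LM and -0.56 in SM, adjusted p = 0.022 and 7.6e-05 by permutation), HADHA (-0.40 and -0.45) and ACSF3 (-0.33 and -0.43) in both muscles and with ACADS in SM (-0.41), and a positive one with CPT1B in SM (0.25). Without the 2 arrays farthest from the ACADVL median, r of ACADVL with MYL1 in LM was -0.16. Likewise without the 2 farthest from the CPT1B median, r of CPT1B with MYL1 in SM was 0.14. The fast myosin MYH1 had r of -0.02 with ACADVL and -0.01 with HADHA in SM. It passed there with a positive r with ACADS (0.32) and ACSF3 (0.25) and a negative one with CPT1B (-0.37). MYH1 also passed with HADHA in LM (-0.26), where r was -0.06 with slide means removed. Parvalbumin, PVALB, passed in SM with ACADVL (-0.37), HADHA (-0.34) and CPT1B (-0.27), and had r of 0.05 with ACADVL and HADHA in LM. The slow light chain MYL2 passed in SM with ACADVL (0.47), HADHA (0.44), CPT1B (0.44) and ACADS (0.29) and in LM with HADHA (0.36) and CPT1B (0.26). The slow troponin TNNI1 passed in SM with ACADVL (0.42) and HADHA (0.30).

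Among the 3 adipocyte markers, ACADVL passed with a negative r for CIDEC in both muscles (-0.25 and -0.29), CPT1B for CIDEC and ADIPOQ in SM (-0.27 and -0.28), ACADS for CIDEC in LM (-0.26) and HADHA for CIDEC in SM (-0.28), and ACSF3 for 0 of 3. In LM, rho with CIDEC was -0.23 for ACADVL and -0.22 for ACADS and passed for neither (adjusted p = 0.078 and 0.107 by permutation). Of the fibroblast probes, 1 of the 2 for COL1A2 passed in SM with a negative r with ACADVL (-0.35), ACADS (-0.33) and HADHA (-0.32). For HADHA, rho was -0.16, and r was -0.14 without the 2 arrays farthest from the HADHA median. The other COL1A2 probe passed with a negative r with ACADVL in LM (-0.29), and LUM with ACADS in SM (-0.28). The endothelial marker VWF passed in LM with a positive r with ACADVL (0.41), ACADS (0.30) and ACSF3 (0.29) and in SM with a negative one with CPT1B (-0.43), and CDH5 passed with ACSF3 in SM (0.27). The macrophage marker CD68 passed with CPT1B (-0.47 in LM and -0.38 in SM) and with ACSF3 in LM (0.41). Over all 60 listed probes, negative r that passed numbered 5 in LM and 12 in SM for CPT1B, where 10.6% and 18.9% of all probes went as far below 0. They numbered 3 and 5 for ACADVL (6.75% and 5.31% of all probes), 1 and 3 for ACADS (5.87% and 6.57%), 3 and 5 for HADHA (9% and 4.26%) and 2 and 3 for ACSF3 (6.03% and 9.24%). The part of fat and other cells in the ties among the members was not tested.

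**Figure D5:**
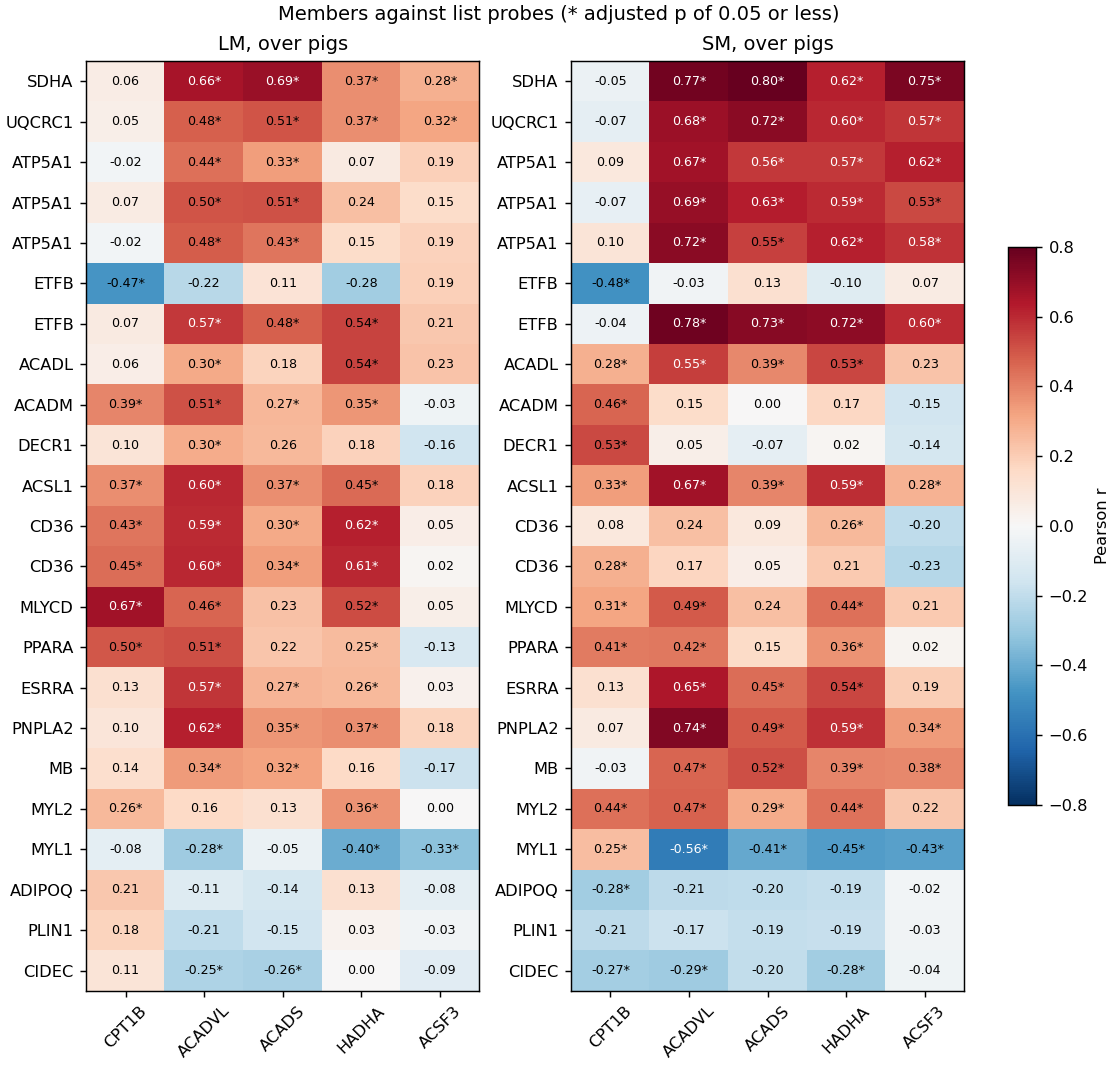
Pearson's r over pigs of each member (columns) with probes of the pathway and marker lists, picked with their values in view (rows, 1 for each probe), is shown in LM (left) and SM (right). Asterisks mark an adjusted p of 0.05 or less over 600 tests. In the 5 mitochondrial rows at the top, CPT1B is pale in both muscles and the other members are red in SM, and CPT1B is red for MLYCD and PPARA.

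The level of a member in one muscle of a pig was set against its level in the other muscle. Over pigs, r between LM and SM was 0.09 for CPT1B, 0.14 for ACADVL, 0.24 for ACADS, 0.03 for HADHA and 0.11 for ACSF3. After adjustment over the 5 members 0 passed, and 1, ACADS, had an unadjusted p under 0.05 by permutation (p = 0.0316, adjusted p = 0.158, rho 0.15). Over 10963 probes the median of this r was 0.066, with the middle 90% between -0.14 and 0.28, and the members lay between 40.6% and 91.0% of the way up that distribution.

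Slides, scan days (10 in LM and 5 in SM) and, in LM, software versions were known technical batches within a muscle. Of these, slides were tested for differences. In limma's F test over 18 LM slides of 3 or more arrays, CPT1B, HADHA and ACSF3 differed between slides (adjusted p = 0.0185, 0.0265 and 0.00989), with slide means of CPT1B from 0.28 to 1.28, while 53.6% of all probes tested passed. In SM, over 13 slides, 0 of the 5 passed (HADHA had an unadjusted p of 0.045) and 15% of all probes did. Of 30 correlations of members with the C-rich index, the median signal and the share of spots well above background of the array, 3 passed: that of CPT1B with the C-rich index in SM, given above, that of HADHA with the same index in LM (r = -0.31, rho -0.32, adjusted p = 0.0281) and that of ACADS with the median signal in LM (r = -0.39, rho -0.40, adjusted p = 0.0033). That index averaged -0.37 ± 0.34 in LM and 0.38 ± 0.31 in SM, and with it as a covariate the CPT1B difference was 1.72 in place of 2.11.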

How the data were processed

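The arrays were read by Agilent Feature Extraction 9.5.1.1 (44 LM arrays) or 9.5.3.1 (46 LM and all 90 SM arrays). The deposited scanner output holds intensity values on a linear scale, background-subtracted by the scanner software. A second file from the authors gives 6903 probes on the natural log scale, shifted by 1 constant for each array. Members and gene lists were chosen with earlier results of these data known.

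The log2 of the deposited processed signal was taken, and the median of the kept probes was subtracted for each array. Spots not well above background, non-uniform or saturated were set to missing, which took 2.73% of the values of probes kept. A probe was dropped when such spots exceeded 50% in LM or in SM, single values lying more than 3 SD away from their probe's mean were then dropped, and 10987 probes remained. The muscles were compared with limma 3.58.1 in R 4.3.3 across all probes kept (Benjamini-Hochberg, threshold 0.05), without terms for sex, season, sire and weight, which are not in the labels used here. Correlations were tested by permutation in Python 3.11.15 with NumPy 2.4.6. The scripts were tested on simulated data. Other centrings, background corrections, filters, batch terms, the deposited table and a pig block were tried as alternatives. Named genes were the 5 members, the genes of the lists with a named probe, and the 3 probes with the highest r for each member and muscle. A pair of listed genes is not reported here. The replicate number names the same pig in both muscles for 90 of 90 pigs, so it pairs the samples, and the pairing rests on the labels. The deviations of the muscles of a pig correlated by 0.073 on average across probes (median 0.046), against -0.0007 for muscles of different pigs. Only 3 of 90 pigs were closest to their own other muscle. The number of arrays and the pig-to-pig spread limit the precision. Half-sib pigs are not fully independent. The main limma fit of the muscles had no pig term, so it did not use the pairing. Its p-values measure the spread between arrays of a muscle, which holds differences of pigs, slides and scan days together.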

Additional observations from a re-analysis of the deposited data

Results flagged for a closer look

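The correlation of 2 pairs of members differed between the muscles. The r of ACADVL and HADHA over pigs was 0.57 in LM and 0.87 in SM, a difference (LM minus SM) of -0.30 with an adjusted p of 0.0099 in the permutation test that swaps muscle labels within pigs (90 pigs, 10 pairs tested). The r of ACADS and ACSF3 was 0.45 in LM and 0.74 in SM, also a difference of -0.30, with an adjusted p of 0.0203 in the same permutation test over 84 pigs. ACSF3 is a dim probe, with a median processed signal of 264.2 in LM and 387.5 in SM, and ACADVL and HADHA are bright ones, with medians of 3875 and 5000 in LM. The SD over pigs was larger in SM than in LM for both members of each pair (0.40 against 0.30 for ACADVL, 0.34 against 0.30 for HADHA, 0.21 against 0.17 for ACADS and 0.295 against 0.22 for ACSF3). Software version 9.5.3.1 read all SM arrays. In LM, r of ACADVL and HADHA was 0.69 in the arrays of that version and 0.53 in those of 9.5.1.1. For ACADS and ACSF3 these values were 0.43 and 0.46. The part of spread, brightness and software version in these differences was not tested.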

How the results depend on the processing

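The difference of each of the 5 members between the muscles kept its direction and call under all 13 alternatives, from 1.64 to 2.19 for CPT1B (log2, LM minus SM) and from -1.12 to -0.61 for the other 4. With the pig as a replicate block 9159 probes were called against 9169, the CPT1B difference was 2.11 and the other 4 were -0.95, -0.71, -0.99 and -0.88; with the C-rich index added 7147 were called, and the block changed no call of a member. The deposited table, with its fewer probes, gave 6027 calls. Counts over the members moved more. In LM, in place of 8 pairs, 4 passed within the 46 arrays of software version 9.5.3.1 and 7 within the 44 of version 9.5.1.1. The differences of r between the muscles that passed were 1 with centring on the 75th percentile, 1 with quantile normalization, 4 with normexp, 4 in the deposited table and 5 with centring over passing spots only, a setting chosen after seeing the data, in place of 2, and 3 without the pigs of replicates 36 and 79. The slide tests were not run without these pigs. Over the 8 alternatives tried for those tests, as few as 1 member in place of 3 differed between LM slides.

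The signs that turned were all in correlations near 0 or under normexp. For CPT1B and ACSF3 in LM (-0.02) r was 0.025 with the 75th percentile, 0.031 with quantile normalization, 0.034 with no filter on dim probes, 0.069 with passing spots only, 0.11 with slide means removed, 0.15 with the C-rich index removed too and 0.14 in software version 9.5.1.1. Normexp gave -0.032 for ACADVL and ACSF3 and -0.095 for ACADS and ACSF3 in LM, -0.16 for CPT1B and ACADVL and -0.20 for CPT1B and HADHA in SM, and -0.051 for the difference of CPT1B and ACSF3. In SM, CPT1B and ACADS gave 0.0076 with quantile normalization, CPT1B and HADHA -0.024 in the deposited table, and with slide means and index removed CPT1B gave -0.040 with ACADVL, -0.058 with HADHA and 0.072 with ACSF3. Between the muscles of a pig, CPT1B gave -0.082 with slide means removed, -0.021 with the index removed and -0.10 with both, and HADHA -0.0099 in the deposited table, -0.26 with slide means removed and -0.26 with both. Without the pigs of replicates 36 and 79 the difference of ACADVL and ACADS was 0.040. The cause of these changes was not tested. Normexp also gave CPT1B and ACADS an r of -0.33 in SM that passed (adjusted p = 0.004 by permutation). Every member spot was well above background, and ACSF3 was the dimmest member in LM and CPT1B in SM (medians of the processed signal 264.2 and 172.9).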
